A study of Mus musculus with 6 samples.

Results

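The interferon response genes are genes that cells switch on when they sense interferon, and 36 of them were followed here by a fixed list of symbols, matched to Ensembl gene identifiers. Of the 36, 35 matched 1 of the 37991 gene rows of the count files, and Psmb9 matched none. Of the 35, 33 had enough counts to be tested, while Oas3 and Ifi44 fell below the filter on low counts. The libraries were made from Nestin-GFP+ cells, taken by flow sorting from the dermis plus subcutaneous white fat of mouse pups at 3 days of age. The titles of the 3 control libraries name the Nes-GFP reporter alone. The 3 mutant titles name Nes-GFP, Nes-Cre and 1 copy of a PDGFRα allele labelled [S]D842V, where "[S]" is left unexplained by the labels. D842V is an activating change of this receptor for platelet-derived growth factor, and the question of the comparison is what the active receptor does to these cells. The reporter was thus shared by both groups, Nes-Cre was named for the mutants only, and the Cre and the allele cannot be told apart. Nestin sequences drive both the reporter and the Cre, so cells of any type with Nestin activity can enter the sort.

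Control replicate 1 stood apart from the other 5 libraries for these genes, and values are therefore given library by library first. It held the highest level of 33 of the 35 matched genes. Comparisons of the members between the groups are given with and without it.

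Interferons bind receptors on the cell surface, and the attached JAK1 and TYK2 kinases then phosphorylate transcription factors of the STAT family, STAT2 among them. STAT2 and IRF9 are subunits of the complex ISGF3, which binds a DNA sequence called the interferon-stimulated response element (ISRE), while the gamma-activated site (GAS) serves the response to interferon gamma. The genes switched on encode sensors of viral RNA and DNA, proteins that block viral replication, the ubiquitin-like protein ISG15 with its enzymes, and factors such as IRF7 that amplify the response. Stromal cells of skin and fat and tissue macrophages can both express them.

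The promoters of 5 members are shown because they carry the element the response is named for, or, for Irf1, the gamma-activated site. Isg15, Ifit1 and Ifit3 are classical targets with large differences between libraries, Gbp3 differed between mutants and controls 2 and 3, and Irf1 was the only member called in the comparison of all 6 libraries. Each sequence is the 200 bases before a RefSeq start of the gene on build GRCm38.p6, read 5′ to 3′ on the gene's strand. Capitals mark matches to GAAANNGAA, the core of the ISRE, in the first 4 and to TTCNNNGAA, the core of the GAS, in Irf1, on either strand. Isg15 lies on the minus strand and the other 4 on the plus strand.
Isg15, chr4:156200819-156201018: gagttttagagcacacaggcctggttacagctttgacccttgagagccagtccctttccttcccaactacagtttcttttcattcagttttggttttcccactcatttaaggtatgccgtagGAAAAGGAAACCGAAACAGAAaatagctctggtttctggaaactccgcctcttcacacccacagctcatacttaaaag
Ifit1, chr19:34640689-34640888: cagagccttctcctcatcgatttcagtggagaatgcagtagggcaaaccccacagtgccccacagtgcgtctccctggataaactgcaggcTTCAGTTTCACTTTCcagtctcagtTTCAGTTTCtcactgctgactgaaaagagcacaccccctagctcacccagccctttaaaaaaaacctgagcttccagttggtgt
Ifit3, chr19:34583329-34583528: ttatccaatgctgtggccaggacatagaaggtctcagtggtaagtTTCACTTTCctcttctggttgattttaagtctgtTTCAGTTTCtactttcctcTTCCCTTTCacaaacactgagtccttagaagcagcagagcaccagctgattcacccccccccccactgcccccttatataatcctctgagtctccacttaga
Gbp3, chr3:142559844-142560043: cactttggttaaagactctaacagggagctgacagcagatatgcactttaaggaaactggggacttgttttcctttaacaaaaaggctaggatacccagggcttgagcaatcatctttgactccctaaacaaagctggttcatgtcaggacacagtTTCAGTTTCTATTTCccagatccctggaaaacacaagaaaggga
Irf1, chr11:53769814-53770013: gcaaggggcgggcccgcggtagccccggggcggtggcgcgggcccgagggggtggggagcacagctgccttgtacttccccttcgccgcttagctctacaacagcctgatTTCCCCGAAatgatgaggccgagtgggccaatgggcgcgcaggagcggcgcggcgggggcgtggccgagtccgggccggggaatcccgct
The 3 matches of Isg15 overlap and begin 78, 72 and 66 bases before the start. Those of Ifit1 begin 109, 103 and 84 bases before it, those of Ifit3 155, 121 and 102, and those of Gbp3 44 and 38. The GAS core of Irf1 begins 90 bases before the start, and its window held no ISRE core. Gbp3 and Irf1 each have another RefSeq start, not shown, whose window held no match to either core.

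Over the RefSeq windows from 250 bases before to 50 bases after each start, the ISRE core was found in 15 of the 27 listed genes that have a window (55.6%). The same 9-letter motif was found in 9.76% of 27025 genes with such windows, and in 32 of 58 further interferon-stimulated genes (55.2%). The GAS core was found in 7 of 27 (25.9%), against 9.55% of all genes. A gene with several starts counted once if any window held the motif, and a match is a description of the letters only. The 15 matched members with the ISRE core had a median ratio of 5.13 between control 1 and the mean of controls 2 and 3. The 11 without it had a median of 2.34, from 0.844 for Irf1 to 8.19 for Oasl2. The ranges of the 2 sets overlapped, and the difference is given with no test.

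The sort was checked against marker lists. Levels are given in CPM, the usual unit of gene counts divided by the library total. Pericyte markers, with Rgs5 among them, summed to 1272 to 1573 CPM in controls and 1241 to 1531 in mutants. Fibroblast markers, collagen genes among them, summed to 120666 to 133331 CPM in controls and 106652 to 121688 CPM in mutants. Control 1 was the highest library in both the pericyte and the fibroblast sum. Pdgfra itself stood at 845, 820 and 863 CPM in controls and 359, 351 and 361 CPM in mutants, a log2 fold change of -1.24. Gene counts per library ran from 11912469 to 18792939, and a count of 0 allows up to 0.16 to 0.252 CPM (3 counts, counting error only). Libraries of 1 group correlated at 0.984 to 0.990, and libraries of different groups at 0.970 to 0.980. Since these are RNA pools of many cells, fewer cells of a type and less RNA per cell cannot be told apart.

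The 35 matched genes summed to 913 CPM in control 1, against 471 and 510 CPM in controls 2 and 3. The mutants held 418, 441 and 466 CPM, each below every control. Irf1 and Ifit2 are high in every library and weigh on this sum. They are also the 2 members that were not highest in control 1, so leaving them out widens its contrast by choice. Without those 2 genes the sum was 706 CPM in control 1, 231 and 284 CPM in controls 2 and 3, and 276, 268 and 321 CPM in the mutants. Control 1 thus stood far above the other 5 libraries in both sums. The order of the mutants against controls 2 and 3 depended on these 2 genes. The mean of log2(CPM + 1) over the 35 genes was 4.27 in control 1 and between 2.51 and 3.06 elsewhere. Over all tested genes this mean lay between 4.27 and 4.34 in the 6 libraries.

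Of 35 members, 33 were highest in control 1, against 16.6% of all 15035 tested genes. The exceptions were Irf1, highest in control 2, and Ifit2, highest in control 3. In 20 of the 35, control 1 was at least 2-fold above every other library. Among tested members these were 18 of 33, against 0.459% of all tested genes, or 69 genes. Of those 69, 16 more were on a list of further interferon-stimulated genes, 2 on the list of pathway genes and 5 on lists of cell type markers (Adgre1, Lyz2, Aif1, Cd74 and Mlana). The remaining 28 were on none of the lists. No member was 2-fold above all others in any of the other 5 libraries.

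**Figure D1:**
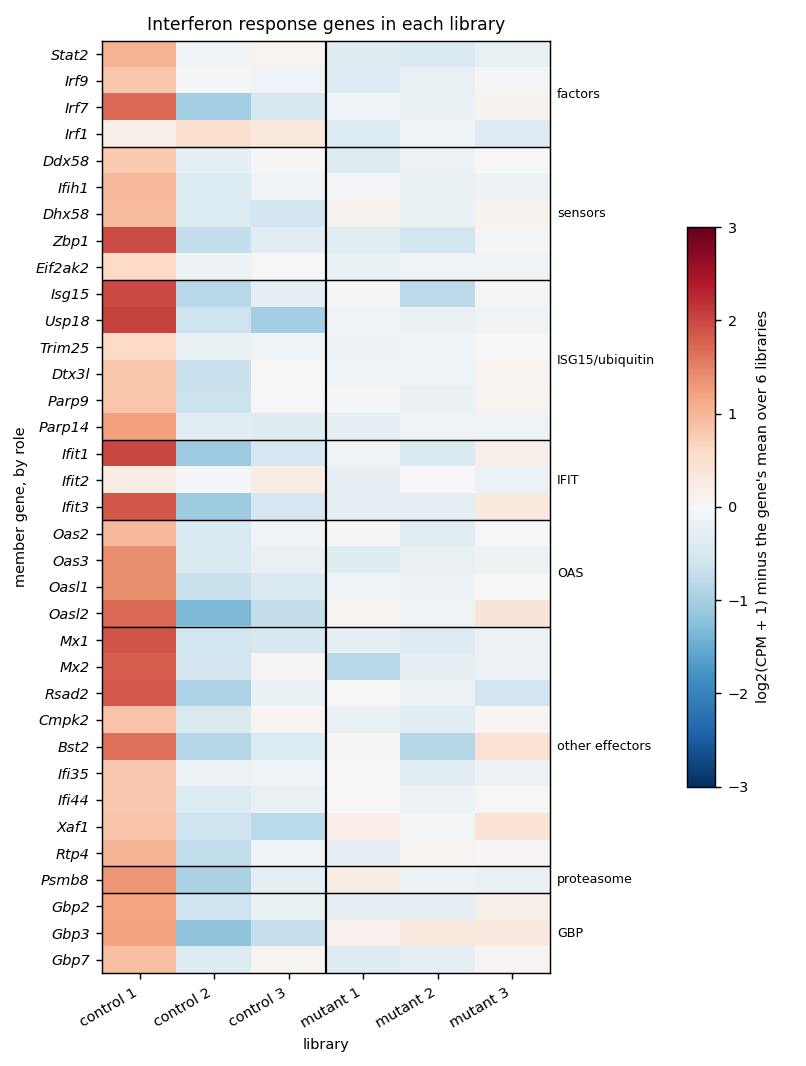
Level of the 35 matched interferon response genes (rows, grouped by role) in each of the 6 libraries (columns), as log2(CPM + 1) minus the gene's mean over the libraries; red is above and blue below that mean. The column of control 1 is the highest for 33 of 35 genes, while Irf1 and Ifit2 follow another pattern.

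The ratio of control 1 to the mean of controls 2 and 3 had a median of 3.43 over the members and 0.980 over all tested genes. It ranged from 0.844 for Irf1 to 18.6 for Usp18, and 15 members stood at 5-fold or more. By role, the median ratio was 1.99 for the transcription factors, 2.52 for the sensors and 2.77 for the ISG15 and ubiquitin genes. It was 8.76 for the 3 IFIT genes, 7.59 for the 4 OAS genes, 5.41 for the 9 other antiviral effectors and 3.43 for the 3 guanylate-binding proteins. The factors thus had the smallest and the IFIT genes the largest median among the roles with more than 1 gene. Controls 2 and 3 also differed from each other: control 2 was the lower in 29 of 35 members, against 52.6% of all tested genes, and the lowest of all 6 libraries for 22 members. The 3 mutants were closer to each other, with a median ratio of 1.32 between the highest and the lowest mutant (1.09 to 2.71 over the members).

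Among the transcription factors, Irf1 stood alone. It encodes a factor induced by interferon gamma, and per length it was the most expressed member, at a mean of 36.9 RPKM (counts scaled by exon length and library size). Irf1 was at 159, 199 and 176 CPM in controls 1 to 3 and at 107, 130 and 108 CPM in mutants 1 to 3. All 3 mutants lay below all 3 controls, and control 1 was the lowest control. Its exons overlap those of Gm17334 on the opposite strand, whose reads may be included. Stat2, a subunit of ISGF3, was at 68.8, 31.0 and 35.1 CPM in controls and at 25.5, 24.4 and 28.2 CPM in mutants. Its 3 mutants also lay below all controls, with control 1 far above the rest. Irf9, the DNA-binding subunit of the same complex, was at 41.2, 22.2 and 21.1 CPM in controls and 17.1, 19.4 and 22.1 CPM in mutants. There the mutants overlapped controls 2 and 3. Irf7, which amplifies type I interferon production, was at 29.1, 3.53 and 5.55 CPM in controls and at 7.64, 6.95 and 8.94 CPM in mutants. All 3 mutants were above controls 2 and 3 and below control 1.

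The sensors differed widely in how far control 1 exceeded controls 2 and 3, from 1.60-fold for Eif2ak2 to 15.6-fold for Zbp1. Ddx58, which encodes the viral RNA sensor RIG-I, was at 35.9, 16.6 and 21 CPM in controls and 15.8, 18.1 and 20.9 CPM in mutants. Ifih1, which encodes the RNA sensor MDA5, was at 23.5, 8.31 and 10.4 CPM in controls and 10.9, 9.79 and 10.2 CPM in mutants. Eif2ak2, the kinase PKR that halts translation on double-stranded RNA, was at 38.4, 22.5 and 25.4 CPM in controls and 21.3, 23.1 and 23.3 CPM in mutants. In all 3 genes the mutants overlapped controls 2 and 3 and lay below control 1. The other 2 sensors were low: Dhx58 (LGP2) and Zbp1, a sensor of Z-form nucleic acid that can start necroptosis. Zbp1 had 111 counts in control 1 and between 3 and 18 counts in each other library.

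In the ISG15 and ubiquitin group, Trim25, a ubiquitin ligase that acts on RIG-I, was at 60.5, 34.2 and 36.8 CPM in controls and at 35.5, 37.3 and 40.2 CPM in mutants. Dtx3l was at 18.7, 5.96 and 10 CPM in controls and 9.46, 9.20 and 10.5 CPM in mutants. Parp9, the partner of DTX3L, was at 22.7, 7.56 and 12.6 CPM in controls and 11.8, 10.7 and 13.1 CPM in mutants. Dtx3l and Parp9 have overlapping exons on opposite strands, and no source used here tells whether the counting used strand, so their reads may be mixed. The same limit holds for Irf1, Irf7 (Phrf1), Usp18 (Gm44148), Dhx58 (Dhx58os), Psmb8 (Gm20496), Oasl1, Eif2ak2, Ifi35 and Gbp2, whose exons also overlap a gene on the opposite strand. Parp14, another ADP-ribosyltransferase, was at 36.6, 11.6 and 11.4 CPM in controls and at 11.9, 13.8 and 13.7 CPM in mutants. Its mutants all lay above controls 2 and 3 by a small margin. Isg15 and Usp18 had means below 5 CPM and were chosen for display after their values were seen. Isg15 was at 13.7, 1.09 and 2.07 CPM in controls and at 2.68, 1.19 and 2.66 CPM in mutants. Usp18, the protease that removes ISG15 and dampens receptor signalling, was at 10, 0.756 and 0.323 CPM in controls and at 1.5, 1.32 and 1.49 CPM in mutants. The mutants of Usp18 did not overlap any control, with control 1 above and controls 2 and 3 below them.

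The IFIT genes encode proteins that bind foreign RNA. Ifit2 varied little, at 48.7, 41.0 and 49.2 CPM in controls and 35.1, 42.6 and 36.8 CPM in mutants. Ifit3 was at 17.6, 1.43 and 2.58 CPM in controls and at 3.20, 3.24 and 5.21 CPM in mutants. The low gene Ifit1, also chosen after its values were seen, was at 10.5, 0.336 and 1.03 CPM in controls and at 1.63, 1.13 and 2.18 CPM in mutants. Ifit1 and Ifit3 thus shared the order control 1, mutants, controls 2 and 3, while Ifit2 did not. Ifit3 shares 51.2% of its 50-base words with Ifit3b, so the counting could have split or dropped reads between these genes.

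The OAS genes make or resemble the enzymes that activate RNase L. Oasl2 was at 25.9, 2.27 and 4.07 CPM in controls and at 7.83, 6.55 and 9.84 CPM in mutants. Every mutant was above controls 2 and 3 and below control 1. Oas3 had 45 counts in control 1 and 1 to 6 counts in each other library. Among the other effectors, Bst2 encodes tetherin, which holds budding virus on the cell. Bst2 was at 39.1, 5.96 and 8.52 CPM in controls and at 12.1, 5.96 and 16.1 CPM in mutants, the widest spread among mutants of any member. Cmpk2, a mitochondrial nucleotide kinase gene next to Rsad2, was at 26.5, 10.2 and 14.8 CPM in controls and 12.1, 11.3 and 15 CPM in mutants. Ifi35 was at 19.1, 9.15 and 9.62 CPM in controls and 10.4, 8.07 and 9.42 CPM in mutants. In Cmpk2 and Ifi35 the mutants overlapped controls 2 and 3. Xaf1, a pro-apoptotic interferon target, was at 9.47, 2.77 and 2.32 CPM in controls and at 5.68, 4.70 and 6.70 CPM in mutants, again between control 1 and the other controls.

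The guanylate-binding proteins are GTPases that attack the vacuoles of intracellular pathogens. Gbp2 was at 15.7, 3.78 and 5.36 CPM in controls and 5.16, 5.16 and 7.40 CPM in mutants. Gbp3 was at 21.5, 3.27 and 5.10 CPM in controls and at 9.66, 11.1 and 10.8 CPM in mutants. Gbp7 was at 32.9, 12.9 and 18.4 CPM in controls and 13.1, 13.9 and 18.4 CPM in mutants. The mutants of Gbp3 lay clear of all controls on both sides, while those of Gbp2 and Gbp7 overlapped controls 2 and 3. Gbp7 shares 12.8% of its 50-base words with other genes. The 14 members with means below 5 CPM were Dhx58, Zbp1, Isg15, Usp18, Ifit1, Oas2, Oas3, Oasl1, Mx1, Mx2, Rsad2, Ifi44, Rtp4 and the immunoproteasome gene Psmb8. All 14 were highest in control 1, at 1.70 CPM (Ifi44) to 13.7 CPM (Isg15). In the other 5 libraries they ran from 0.0839 CPM (Oas3) to 5.03 CPM (Psmb8).

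**Figure D2:**
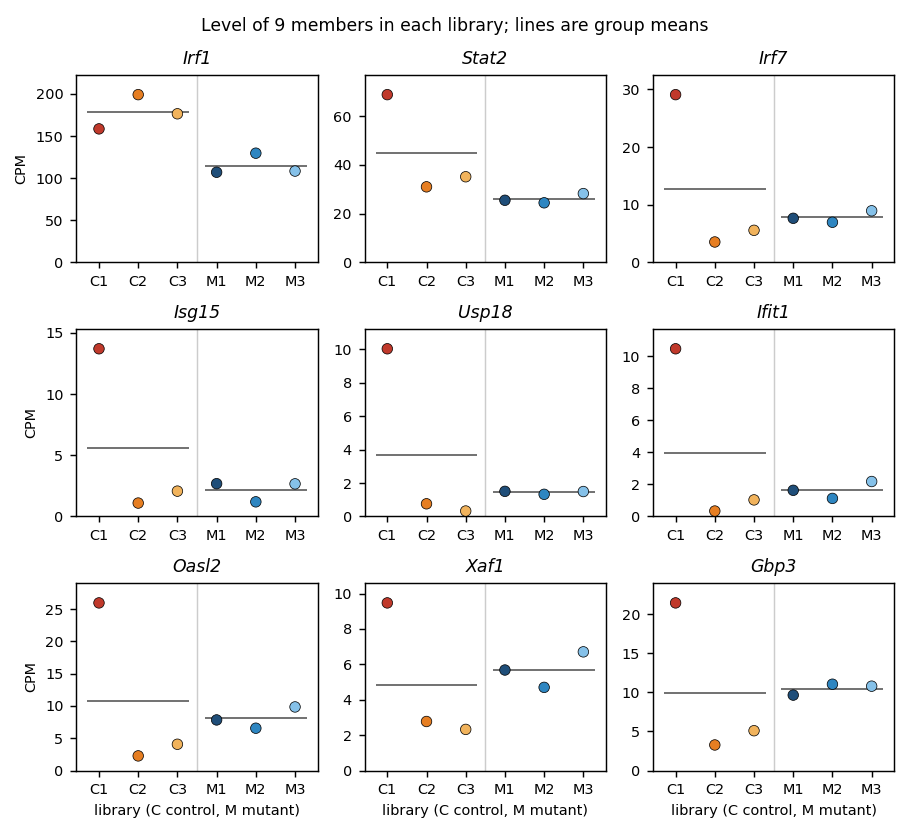
CPM of 9 members (panels) in controls C1 to C3 and mutants M1 to M3, each point 1 library, with lines at the group means; every panel has its own axis from 0. In Irf1 the 3 mutants lie below the 3 controls, while in Irf7, Usp18, Oasl2, Xaf1 and Gbp3 they lie between C1 and the other 2 controls.

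With all 3 controls against all 3 mutants, edgeR's quasi-likelihood test on the whole table called 0 of 33 members higher and 1 lower, at a Benjamini-Hochberg adjusted p under 0.05. The shares called among all 15035 tested genes were 8.63% higher and 9.13% lower. The 1 member was Irf1, which fell by 0.63 on the log2 scale (95% interval -0.84 to -0.43; edgeR adjusted p = 0.00136), from 178 ± 20.4 CPM to 115 ± 12.7 CPM (SD, n = 3). Irf1 was called under each of the 14 alternative settings, with adjusted p from 3.11e-11 to 0.0101. DESeq2 and limma-voom also called 0 members higher. At an unadjusted p under 0.05 there were 2 members, Irf1 and Ifit2. Ifit2 had a log2 fold change of -0.29 (-0.50 to -0.08) and an edgeR adjusted p of 0.0558, and it passed in 3 of the 14 settings.

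The median log2 fold change of the 33 members was -0.52, with 31 below 0, against 0.01 over all tested genes. Leaving out any 1 of the other 5 libraries kept it between -0.79 and -0.43. The 95% intervals of the members had a median width of 2.99 on the log2 scale, against 0.516 for all tested genes. Stat2 had a log2 fold change of -0.80 (-1.74 to 0.14; edgeR adjusted p = 0.206). Irf7 had -0.73 (-3.22 to 1.77; adjusted p = 0.646, edgeR) and Isg15 -1.39 (-4.41 to 1.62; adjusted p = 0.462, edgeR). These intervals allow changes of several-fold in either direction for Irf7 and Isg15. Among the tested members the groups did not overlap in 0 cases with the mutants higher and in 2 with the mutants lower, Irf1 and Stat2. Over all tested genes the shares were 19% and 18.1%.

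Leaving out control 1 left 2 controls and 3 mutants and turned most of the fold changes round. Control 1 was left out as the library that stood apart for these same genes. The turn upward and the narrower intervals thus follow in part from that choice, and the adjusted p values do not correct for it. Control 2, 1 of the 2 controls kept, was the lowest of all 6 libraries for 22 members. Now 5 of 33 members were called higher and 2 lower by edgeR, against 7.83% and 9.8% of 15306 tested genes. The 5 were Gbp3, Oasl2, Xaf1, Irf7 and Usp18, and the 2 were Irf1 and Stat2. Gbp3 rose by 1.30 on the log2 scale (0.88 to 1.72; edgeR adjusted p = 0.000645), and Oasl2 by 1.32 (0.77 to 1.87; adjusted p = 0.00387). Xaf1 rose by 1.17 (0.66 to 1.68; adjusted p = 0.00435), Irf7 by 0.77 (0.31 to 1.23; adjusted p = 0.0226) and Usp18 by 1.46 (0.53 to 2.39; adjusted p = 0.0321). Each of the 5 was higher in 3 of 3 mutants than in both remaining controls. Irf1 fell by 0.71 (-0.91 to -0.51; edgeR adjusted p = 0.000243) and Stat2 fell by 0.35 (-0.57 to -0.12; adjusted p = 0.0333). Ifit3 (0.93, edgeR adjusted p = 0.0523), Dhx58 (0.64, adjusted p = 0.0794) and Ifit1 (1.2, adjusted p = 0.0817) came next and did not pass.

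The median log2 fold change without control 1 was 0.36, with 24 members above 0 and 9 below, against 0.01 over all tested genes. The sign turned in 22 of 33 members, all from below to above 0, against 8.77% of all genes tested in both fits. The median width of the intervals shrank to 0.969, against 0.542 for all genes. Among tested members, 12 had all mutants above controls 2 and 3 and 2 had all mutants below them. Over all genes those shares were 24.2% and 24.1%. Irf1 was the only member called both with and without control 1.

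**Figure D3:**
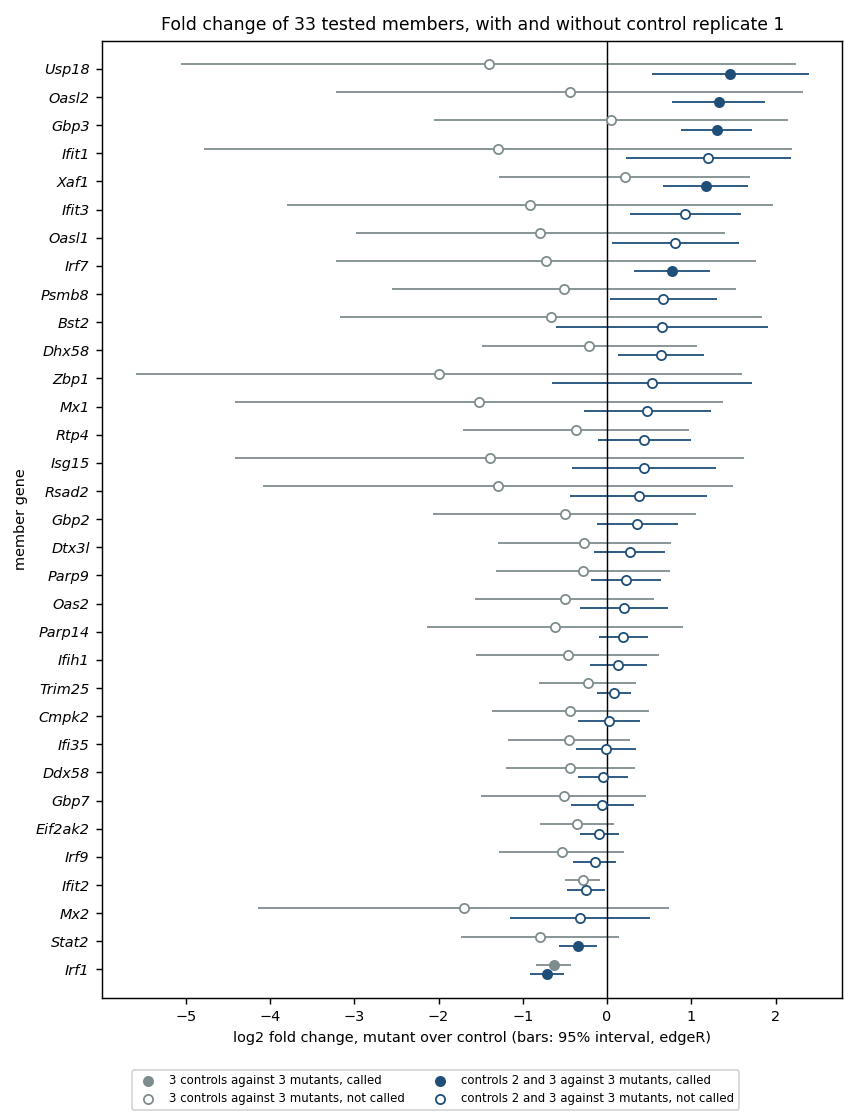
Log2 fold change of mutant over control for the 33 tested members, with 95% intervals from edgeR; grey is 3 controls against 3 mutants, blue is controls 2 and 3 against 3 mutants, and filled points are called at an adjusted p under 0.05. Grey points lie below 0 for 31 of 33 members with wide bars, blue points lie above 0 for 24, and Irf1 is filled in both.

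The interferon genes themselves were almost silent. Of 13 listed ligand genes, 8 matched a row and 0 had enough counts to test. Ifna4, Ifne, Ifnk, Ifnl2, Ifnl3 and Ifng had 0 counts in every library, which allows up to 0.252 CPM in the shallowest. Control 1 had no count of any matched ligand. All 6 receptor genes were tested and 0 were called by edgeR, DESeq2 or limma-voom, with 1 at an unadjusted p under 0.05 in edgeR. Their sum lay between 222 and 240 CPM in all libraries. Ifnar1, a chain of the type I receptor, was at 109, 108 and 112 CPM in controls and 111, 113 and 111 CPM in mutants. Ifngr1, a chain of the interferon gamma receptor, was at 51.5, 40.0 and 46.6 CPM in controls and 44.6, 44.3 and 45.1 CPM in mutants. The receptors therefore did not share the excess in control 1.

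Of 49 listed genes of the pathway outside the members, 44 matched and 35 were tested. Of these, 1 was called higher and 2 lower, against 8.63% and 9.13% of all tested genes. Socs3, a feedback inhibitor of JAK kinases, rose by 0.53 on the log2 scale (0.32 to 0.75; edgeR adjusted p = 0.00448). It was at 200, 263 and 227 CPM in controls and at 300, 337 and 362 CPM in mutants. Cgas (Mb21d1), the sensor of cytosolic DNA, fell by 0.65 (-0.95 to -0.35; edgeR adjusted p = 0.00855). It was at 12.5, 10.6 and 12.0 CPM in controls and 6.53, 7.68 and 8.19 CPM in mutants. The groups did not overlap in Socs3 or Cgas, and both calls held without control 1. Samhd1, which limits nucleotides for viral replication, was at 61.6, 42.7 and 48.4 CPM in controls and 39.3, 34.3 and 38.3 CPM in mutants. It fell by 0.45 (-0.75 to -0.15; edgeR adjusted p = 0.0439), but without control 1 its adjusted p was 0.0574.

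Among the kinases and signal transducers 0 of 6 were called by edgeR, DESeq2 or limma-voom, with 2 at an unadjusted p under 0.05 in edgeR. Jak1 was at 182, 166 and 185 CPM in controls and 175, 177 and 169 CPM in mutants. Stat3, the transducer of interleukin 6 family signals, was at 147, 141 and 139 CPM in controls and 119, 128 and 126 CPM in mutants, with a log2 fold change of -0.19 and an edgeR adjusted p of 0.0723. Among the 14 genes of interferon induction only Cgas was called. Myd88 (61.6, 63.2 and 60.9 CPM in controls) and Traf3 (47.3, 49.4 and 43.0 CPM) were level in controls and differed little in mutants, at 56.6 to 67.6 and 42.6 to 45.9 CPM.

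Further interferon-stimulated genes outside the members were also mostly highest in control 1. Of 73 listed, 70 matched and 59 were tested, and 59 of the 70 were highest in control 1. Their summed level was 1695 CPM in control 1, 933 and 1014 CPM in controls 2 and 3, and 1171, 1128 and 1208 CPM in mutants. With all libraries edgeR called 1 higher (Ifitm1) and 2 lower (Znfx1 and Parp11), with a median log2 fold change of -0.18. The shares over all tested genes were 8.63% higher and 9.13% lower. Ifitm1, which blocks viral entry, was at 35.1, 35.7 and 32.8 CPM in controls and 42.6, 44.1 and 38.6 CPM in mutants (0.27, edgeR adjusted p = 0.0466), and DESeq2 and limma-voom did not call it. Znfx1, a helicase that senses RNA, was at 43.2, 33.2 and 31.9 CPM in controls and 24.1, 26 and 27.9 CPM in mutants (-0.48, edgeR adjusted p = 0.0193). Parp11 was at 10.5, 11.7 and 10.1 CPM in controls and 7.24, 7.61 and 8.46 CPM in mutants (-0.46, edgeR adjusted p = 0.0328).

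Without control 1, 14 of the 59 were called higher and 2 lower, with a median of 0.32. Over all tested genes of that fit, 7.83% were called higher and 9.8% lower. Since 59 of the 70 matched genes were highest in control 1, leaving it out raises these fold changes too. Ifitm3, another inhibitor of viral entry, was at 146, 67.0 and 81.5 CPM in controls and 102, 104 and 98.8 CPM in mutants, a log2 fold change of 0.45 over controls 2 and 3 (edgeR adjusted p = 0.00524). Ly6e, a restriction factor of coronaviruses, was at 119, 67.6 and 69.8 CPM in controls and 94.7, 74.5 and 93.1 CPM in mutants (0.35, adjusted p = 0.045). Cxcl9, a chemokine induced by interferon gamma that draws T cells, was at 3.91, 0.42 and 0.968 CPM in controls and 3.07, 2.18 and 3.25 CPM in mutants (1.97, edgeR adjusted p = 0.0034). Cxcl9 was named after its values were seen. In Ifitm3 and Cxcl9 the mutants lay between control 1 and the other controls, the order also seen in Gbp3 and Oasl2. Ifitm2 and Rnf213 were not called with or without control 1. Ifitm2 was at 216, 196 and 203 CPM in controls and 240, 240 and 226 CPM in mutants (edgeR adjusted p = 0.0575 without control 1). Rnf213 was at 142, 42.6 and 44.0 CPM in controls and 45.4, 37.9 and 44.3 CPM in mutants.

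Markers of other cell types moved with some of these differences. Macrophage markers, none of them at 0, summed to 437 CPM in control 1, 227 and 319 CPM in controls 2 and 3, and 363, 333 and 407 CPM in mutants. Of the 14, 6 were highest in control 1, and 0 were called by edgeR or DESeq2 with all libraries (2 at an unadjusted p under 0.05 in edgeR), while limma-voom called C1qc. Adgre1, the macrophage marker F4/80, was at 47.3, 10.6 and 15.9 CPM in controls and 11.9, 11.1 and 15 CPM in mutants. Lyz2, lysozyme of myeloid cells, was at 63.6, 13.6 and 16.1 CPM in controls and 23.2, 23.3 and 28.6 CPM in mutants. Mrc1, the mannose receptor of tissue macrophages, was at 87.8, 74.5 and 107 CPM in controls and 101, 93.4 and 106 CPM in mutants. Adgre1 and Lyz2 thus shared the excess of control 1 and Mrc1 did not. Without control 1, 5 of 14 macrophage markers were called higher in mutants: C1qa, C1qb, C1qc, Lyz2 and Tyrobp. Over all tested genes of that fit, 7.83% were called higher. C1qc rose by 1.31 on the log2 scale there (edgeR adjusted p = 0.00231). The part of these macrophage differences in the interferon gene values was not tested.

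Of the other marker lists, conventional dendritic cell markers were also highest in control 1, at 22.9 CPM against 9.79 to 15.4 CPM elsewhere, with 0 of 5 tested called by edgeR or limma-voom (2 at an unadjusted p under 0.05 in edgeR) and Cd74 called lower by DESeq2. Melanocyte markers were at 371 CPM against 140 to 264 CPM, with 1 of 6 lower in mutants. Plasmacytoid dendritic cell markers, from cells known for interferon production, summed to 10.6 CPM in control 1 and up to 13.9 CPM elsewhere, with Klk1 at 0 and the 1 tested gene not called. T, NK and B cell markers summed to 2.60 to 4.73 CPM, with Gzma, Gzmb and Ms4a1 at 0 and 1 of 3 tested lower. Neutrophil markers summed to 0.923 to 2.65 CPM, with Ly6g and Mpo at 0 and no gene tested. Genes known to respond to tissue dissociation had their lowest sum in control 1, at 6288 CPM. The other controls held 10346 and 10439 CPM and the mutants 11904 to 13251 CPM. Of the 14 genes, 2 were highest in control 1. In mutants 1 was called higher and 2 lower with all libraries, and 4 higher and 4 lower without control 1. Over all tested genes, 8.63% were called higher and 9.13% lower with all libraries, and 7.83% and 9.8% without control 1. Whether any of these moved the interferon genes was not tested.

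Between the groups, several lists differed, beside 8.63% higher and 9.13% lower over all tested genes. Skeletal muscle markers summed to 69.6 to 94.8 CPM in controls and 189 to 301 CPM in mutants, with 9 of 11 higher (10 without control 1). Endothelial markers summed to 176 to 215 CPM and 293 to 408 CPM, with 6 of 12 higher (5 without control 1, as Pecam1 was lost). Keratinocyte markers summed to 578 to 890 CPM and 1053 to 1312 CPM, with 5 of 10 higher (6 without control 1). Mast cell markers summed to 84.4 to 101 CPM and 110 to 135 CPM, with 4 of 6 tested higher and 1 lower (3 and 1 without control 1, as Hdc was lost). Adipocyte markers had 1 of 7 tested higher, Fabp4, a call lost without control 1. Of the rest, erythroid markers had 0 of 2 called in edgeR (1 of 3 without control 1; with all libraries 2 at an unadjusted p under 0.05, 2 called by DESeq2 and 1 by limma-voom), Schwann cell markers 1 of 8 lower, pericyte markers 2 of 12 higher, and fibroblast markers 1 higher and 2 lower of 12. The part of these shifts in the lower level of Irf1 was not tested.

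**Figure D4:**
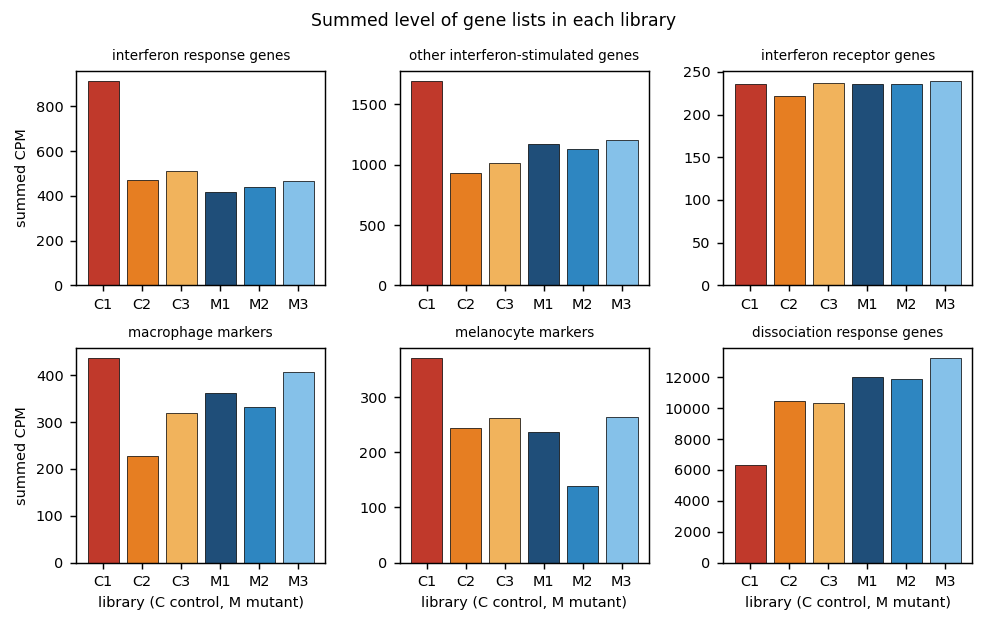
Summed CPM of 6 gene lists (panels) in controls C1 to C3 and mutants M1 to M3, as bars from 0, each bar 1 library. Interferon response genes, other interferon-stimulated genes, macrophage and melanocyte markers are highest in C1, interferon receptor genes are level at 222 to 240, and dissociation response genes are lowest in C1.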

How the data were processed

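RNA from Nestin-GFP+ cells was sequenced in 3 control and 3 mutant libraries, and the labels' protocols name no batch. The sample titles do not give the number of mice behind each library. The authors deposited whole-number counts of reads per Ensembl gene. The submitters' processing notes name build mm9, TopHat2 2.0.4 and HTSeq 0.5.3, and also DESeq2, FastQC and cutadapt 1.1, without saying how each was used. The strand setting was not given in the sources used. The 5 rows naming no gene, 36.9% to 41.7% of the reads listed, stayed out of library sizes and tests. Symbols were matched by identifier for 32919 of 37991 rows, holding 99.3% of the counts.

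Levels are CPM, counts scaled by the library's gene total, and RPKM used exon lengths from GENCODE M21. Tests used edgeR 4.0.16 (TMM scaling, filterByExpr, robust quasi-likelihood F test) in R 4.3.3 on the whole table, with Benjamini-Hochberg adjustment over all tested genes. A call is an adjusted p under 0.05. Alternatives were DESeq2 1.42.0, limma-voom 3.58.1, 3 other scalings, no filter, a stricter filter, the replicate number as a block, and each library left out in turn. Another 5, which change the tool or scaling with control 1 left out, were chosen after seeing the data. The fit was tested on simulated data. Promoters came from RefSeq (GRCm38.p6), and 50-base words shared between genes were counted on GENCODE M21 transcripts.

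The members and all lists (pathway genes, further interferon-stimulated genes and the markers of pericytes, fibroblasts, adipocytes, macrophages, T, NK and B cells, plasmacytoid and conventional dendritic cells, neutrophils, mast cells, endothelium, skeletal muscle, keratinocytes, Schwann cells, melanocytes, erythroid cells and dissociation) were chosen with earlier results of these data known. Members with a mean of at least 5 CPM, or called, are given in each library. Called pathway genes are named with the 2 of each role with the highest mean CPM. Further interferon-stimulated genes are named where called with all libraries, with the 4 of highest mean CPM. Within each group, every pair of libraries differed beyond sampling noise. All 6 were treated as separate samples, though this difference cannot show that each came from another animal.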

Additional observations from a re-analysis of the deposited data

How the results depend on the processing

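The calls among the interferon response genes depend on control replicate 1 more than on the tool or the scaling. Leaving out each library in turn moved the number of members called higher from 0 to between 0 and 5, the number called lower from 1 to between 1 and 2, and the members' median log2 fold change from -0.52 to between -0.79 and 0.36. The 5 and the 0.36 came without control 1. Without the filter, 3 members were called lower, and the share of all genes called under that setting is not given here. Over all genes, leaving out 1 library gave 658 to 1199 higher (1298 with all) and 753 to 1500 lower (1372 with all).

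Pathway genes called higher numbered 3, not 1, both without the filter and with the replicate block. Those called lower numbered 1 under upper-quartile scaling and 1 to 3 with 1 library left out. Further interferon-stimulated genes called higher numbered 0 with DESeq2, RLE scaling and limma-voom, and 0 to 14 with 1 library left out. Those called lower numbered 1 with DESeq2, 8 without the filter, and 0 to 3 with 1 library left out. Samhd1 was lost under 6 and Ifitm1 under 8 of 14 alternatives. With control 1 left out, DESeq2 and upper-quartile scaling called 1 member lower, not 2, as Stat2 was lost. All 5 added settings called 4 to 6 members higher, and the shares of all genes called under them are not given here. These settings leave out the library in which 33 of 35 members were highest, so the upward calls follow in part from that choice.

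The log2 fold change changed sign in limma-voom for Dhx58 (0.015) and Oasl2 (0.26), and with the replicate block for Oasl2 (0.15). With 1 library left out, the range crossed 0 for Zbp1 (-2.49 to 0.53), Mx1 (-1.98 to 0.48), Usp18 (-1.96 to 1.46), Isg15 (-1.86 to 0.44), Ifit1 (-1.80 to 1.2), Rsad2 (-1.76 to 0.37), Ifit3 (-1.38 to 0.93), Oasl1 (-1.20 to 0.81), Irf7 (-1.16 to 0.77), Bst2 (-1.07 to 0.65), Psmb8 (-0.93 to 0.67), Parp14 (-0.91 to 0.19), Oasl2 (-0.90 to 1.32), Gbp2 (-0.84 to 0.36), Oas2 (-0.79 to 0.20), Ifih1 (-0.73 to 0.13), Rtp4 (-0.72 to 0.44), Cmpk2 (-0.70 to 0.022), Parp9 (-0.58 to 0.22), Dtx3l (-0.57 to 0.27), Dhx58 (-0.53 to 0.64), Trim25 (-0.38 to 0.081), Gbp3 (-0.35 to 1.30) and Xaf1 (-0.15 to 1.17). The positive end came without control 1 in each. The cause of these changes was not tested.

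No consistent pairing by replicate number was visible. Deviations of same-numbered libraries correlated at 0.12, -0.03 and -0.09, with a replicate not always closest to its own number. Control 1 and mutant 1 were closest to each other. These correlations cannot show whether same-numbered libraries were prepared together. With the replicate block the members' median was -0.35, with 0 called higher and 1 lower. With 3 libraries a group, members with under 20 counts in a library, such as Zbp1 and Oas3, carry large counting error.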
